A study of Caenorhabditis elegans with 2 samples.

Results

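The nuclear hormone receptor genes of Caenorhabditis elegans were examined in lists of chromatin intervals from an assay of the protein F57C9.4 in whole young adult worms. The members were all protein-coding genes of the Ensembl annotation of assembly WBcel235 whose name begins with nhr-, which gave 269 of 19973 protein-coding genes on the nuclear chromosomes. Chromatin immunoprecipitation with sequencing (ChIP-seq), in which sheared chromatin is recovered with an antibody and the DNA in it is sequenced, had been done on strain OP550. This strain carries unc-119(tm4063) on chromosome III and the integrated transgene wgIs550, which makes F57C9.4 fused at its C terminus to GFP and FLAG. The worms were of mixed sex, hatched into starvation as L1 larvae after bleaching and collected 66 h after that synchronisation, and the antibody was directed against GFP by the description in the labels, which name F57C9.4 in their antibody field. The labels give 2 biological replicates, called 5 and 6, of this single group, with no untagged strain and no other condition beside it. The strain is a single transgenic line and the material was pooled whole animals, so a site cannot be assigned to a tissue.

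Nuclear hormone receptors are transcription factors with a zinc finger domain that contacts DNA and a domain that can bind a small lipophilic ligand such as a steroid or a fatty acid. Nematodes carry a greatly expanded family of them, most of which descend from an ancestor related to vertebrate HNF4. A smaller set has clear counterparts in insects and vertebrates and acts in moulting, development and neuronal fate, and several of the expanded receptors control fat metabolism and the response to diet and bacterial products.

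Sequences at a few sites show the kind of site that the ranks below describe, namely intron sites among the highest pooled intervals at receptor starts, and strong peaks inside receptor genes but away from their starts. Coding exons, which held more of the family's summits than introns, are not shown. Each is the summit with 50 bases on either side, build ce11 (WBcel235), plus strand, the summit being the position of an interval's highest signal. For nhr-114 (V:4186719-4186819), nhr-15 (V:312865-312965) and nhr-256 (V:1743955-1744055), on the left arm of chromosome V, and for nhr-255 (X:15743058-15743158), the interval is the highest of the pooled list at a start of the gene, and capitals mark runs of at least 5 A or 5 T. nhr-114 and nhr-255 hold no such run, and the longest in nhr-256 has 8 bases. For nhr-17 (X:12665208-12665308) the sequence is that of a reproducible peak inside the gene, and capitals mark the part of an annotated tRNA gene of 84 bases that starts 30 bp from the summit on the plus strand. The sequence for nhr-105 (IV:7051631-7051731) is that of a reproducible peak in an intron of the gene, and it holds no run of 5 A or 5 T.
nhr-114: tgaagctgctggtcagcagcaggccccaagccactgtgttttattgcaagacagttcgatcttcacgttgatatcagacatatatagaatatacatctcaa
nhr-255: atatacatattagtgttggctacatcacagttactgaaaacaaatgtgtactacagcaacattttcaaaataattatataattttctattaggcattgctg
nhr-15: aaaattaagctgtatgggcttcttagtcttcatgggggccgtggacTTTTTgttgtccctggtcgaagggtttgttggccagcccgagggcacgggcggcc
nhr-256: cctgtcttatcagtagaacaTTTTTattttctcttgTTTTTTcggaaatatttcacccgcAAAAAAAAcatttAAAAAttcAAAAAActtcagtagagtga
nhr-17: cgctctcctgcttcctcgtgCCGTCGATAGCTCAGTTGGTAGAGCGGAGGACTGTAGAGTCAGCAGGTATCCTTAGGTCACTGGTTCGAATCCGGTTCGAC
nhr-105: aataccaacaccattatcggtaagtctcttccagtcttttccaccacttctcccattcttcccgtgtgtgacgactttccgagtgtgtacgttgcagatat

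From build ce11, 4 deposited lists were read: the intervals of replicate 5, of replicate 6 and of both pooled, and the peaks that passed the irreproducible discovery rate (IDR) procedure, which sets a cutoff from how well ranks match across replicates. The replicate and pooled lists each held exactly 30000 intervals, deposited as peaks together with background, whereas the IDR list held 360, which were the 360 highest of the pooled list. The q-values of the pooled intervals ran from 0.00493 to 0.906, so an interval in that list is not by itself evidence of binding. Intervals were ranked within a list by their signal value, rank 1 being the highest, because the scale differed between lists (median signal 25.8 pooled, 18.5 in replicate 5 and 12.3 in replicate 6). A gene was given an interval when a summit lay within 500 bp of any of its annotated starts, and the highest such interval was its best one. Read counts were not analysed here, so the depth is unknown and a signal value has no counting error.

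No nhr gene had an IDR peak at a start. The share of all protein-coding genes with one was 0.941%, or 188 genes, and the count of 0 of 269 nhr genes has a Wilson 95% upper bound of 1.41%, which covers counting error over genes only and includes that share. In the pooled list 37.5% of the family had an interval at a start (Wilson 95% interval 32 to 43.5), 36 genes on the chromosome V arms and 65 elsewhere, beside 33.6% of all protein-coding genes. Replicate 5 gave 100 nhr genes, or 37.2%, beside 33.9% of all protein-coding genes. Replicate 6 gave 99, or 36.8%, beside 33.9%. The family's share was slightly above that of all protein-coding genes in each list, and each Wilson interval included the latter (31.6 to 43.1% in replicate 5 and 31.3 to 42.7% in replicate 6).

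By median rank over the whole family, the receptors' intervals lay lower in the lists than those of protein-coding genes at large. Their best pooled ranks ran from 867 to 29935 with a median of 16864, while the median over all protein-coding genes with an interval was 12612. In replicate 5 the medians were 15284 for nhr genes and 12876 for all protein-coding genes, and in replicate 6 they were 14490 and 12755. The order was the same in each list, and the gap was widest in the pooled one. It did not hold in every region of the genome, as given below. Among the best 1000 pooled intervals there were 2 nhr genes, 0.743%, beside 2.15% of all protein-coding genes. Among the best 3000 there were 7, 2.6%, beside 5.14%, and among the best 10000 there were 31, 11.5%, beside 14.2%.

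When all protein-coding genes with a pooled interval were divided by rank into 4 groups of equal size, 17 nhr genes fell in the highest group, 19 in the next, 36 in the one after and 29 in the lowest. The counts in replicate 5 were 24, 20, 25 and 31, and in replicate 6 they were 17, 27, 30 and 25. The highest pooled signal at an nhr start was 54.0, and the lowest signal in the IDR list was 66.8. The lowest q-value of an nhr gene in the pooled list was 0.0364, at nhr-88, while the highest in the IDR list was 0.0237. Those of nhr-114 and nhr-47 were 0.0378 and 0.0538, and the interval at the family's median rank had 0.754. The family's pooled intervals are therefore not taken as sites of binding. No other nhr start came as near to the IDR list as nhr-88 and nhr-114, and the family's median signal of 24.7 was under the list median of 25.8.

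**Figure D1:**
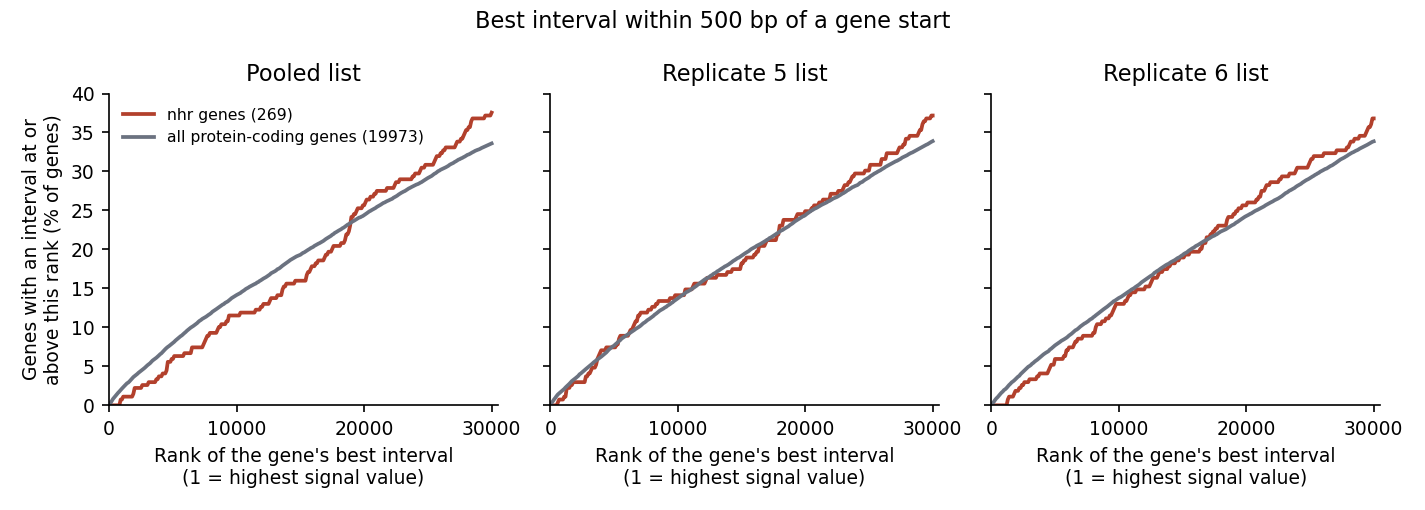
Share of genes (%) whose best interval within 500 bp of a start had at most the rank on the x axis, for the 269 nhr genes (red) and all 19973 protein-coding genes (grey), in the pooled, replicate 5 and replicate 6 lists. The nhr line starts to the right of the grey one in each panel, lies under it over the best 10000 intervals of the pooled list, and ends above it, at 37.5% against 33.6% in the pooled list.

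Few receptors had a high interval in both replicates. In both replicate lists 46 nhr genes had an interval, 17.1% of the family, beside 17.7% of all protein-coding genes. A further 54 had one in replicate 5 without replicate 6, 20.1% beside 16.2%, and 53 in replicate 6 without replicate 5, 19.7% beside 16.2%. In all, 157 of the 269 had an interval in at least 1 of the 3 lists, 58.4% beside 52.0%, and 43 had one in all 3, 16% beside 16.1%, while 112 had none. The best summits of the replicates lay within 200 bp of each other at 17 nhr genes, 6.32% of the family, beside 8.91% of all protein-coding genes. That was 37.0% of the 46 nhr genes found in both lists, against 50.4% of the 3529 protein-coding genes found in both. The 2 replicates therefore placed many of the receptors' best intervals at different points, in some genes at different starts. Receptors more often had 2 or more annotated starts, 37.9% against 27.4% of protein-coding genes, and the bearing of this was not tested.

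The pooled summit told the same way. It lay inside an interval of both replicates at 23 of the nhr genes with a pooled interval, 22.8%, against 35.7% of all protein-coding genes with a pooled interval. It lay in an interval of replicate 5 alone at 46 nhr genes, 45.5% against 35.8%, of replicate 6 alone at 23, 22.8% against 21.2%, and of neither at 9, 8.91% against 7.24%. Only nhr-88 had its best interval among the best 3000 of both replicates, 0.372% of the family beside 1.85% of all protein-coding genes. Widening this to the best 10000 of both replicates gave 10 receptors, 3.72% beside 5.62%, which were nhr-88, nhr-114, nhr-47, nhr-21, nhr-49, nhr-66, nhr-46, nhr-59, nhr-1 and nhr-210. The best replicate summits of nhr-46 and nhr-1 lay 8359 and 6334 bp apart, at different starts. nhr-210 had a pooled rank of only 20026, although it ranked 6141 in replicate 5 and 6031 in replicate 6, with best summits 562 bp apart.

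**Figure D2:**
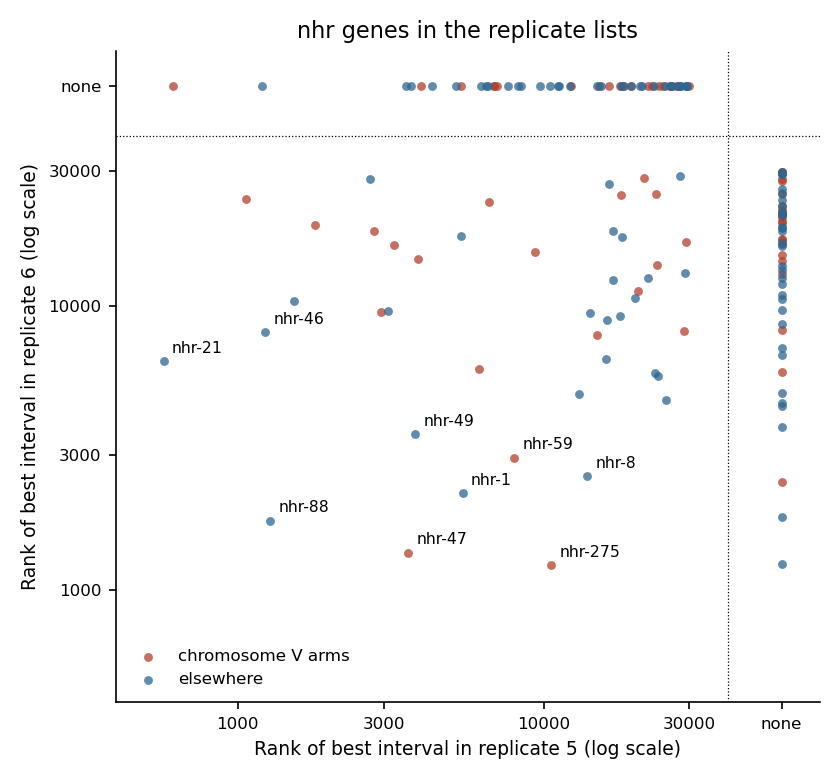
Rank of the best interval of each nhr gene in replicate 5 (x axis) and replicate 6 (y axis), both on log scales, with genes on the chromosome V arms in red and genes elsewhere in blue. Points beyond the dotted lines had no interval in the other replicate: 54 genes along the top and 53 along the right edge, against 46 with an interval in both.

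The highest pooled interval at any receptor start was that of nhr-88 on chromosome II. Its summit at II:2977994 lay in an intron of the gene, 422 bp upstream of the nearest of its 3 annotated starts, and 98 bp from the start of the non-coding RNA gene K08A2.11. The signal was 54.0 in the pooled list (rank 867), 34.4 in replicate 5 (rank 1279) and 22.2 in replicate 6 (rank 1753). In replicate 6 the best interval was at another point, 180 bp downstream of a start, and the interval over the pooled summit had rank 2284. In all 3 lists this gene was thus high, and it placed 380th among all protein-coding genes in the pooled list.

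nhr-114, a receptor needed for germline function on some bacterial diets, came next with a pooled signal of 53.6 (rank 887). Its summit lay 433 bp upstream of the whole gene, within an intron of the neighbouring protein-coding gene Y45G5AM.9, in the sequence printed above. The best interval in the window had a signal of 28.9 in replicate 5 (rank 2933) and 14.4 in replicate 6 (rank 9529), the latter 246 bp downstream of a start. Over the pooled summit replicate 6 had a higher interval, of rank 1508, whose own summit lay outside the window. nhr-47, on the left arm of chromosome V, had its pooled summit at V:5505231, 22 bp upstream of its only start and in an exon of the non-coding RNA gene C24G6.10. Its signal was 51.2 pooled (rank 1069), 27.5 in replicate 5 (rank 3615) and 23.4 in replicate 6 (rank 1352). Its replicate summits lay 38 bp apart, so both replicates placed the interval at the same point.

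Other high receptors leaned on 1 replicate. nhr-21, on chromosome II, had a signal of 45.1 in the pooled list (rank 1837) and 40.8 in replicate 5, where rank 572 was the highest of any nhr gene, but no replicate 6 interval covered the pooled summit at II:7346623. The best replicate 6 interval in its window ranked 6415, with a signal of 16.1 and a summit 293 bp from that of replicate 5. nhr-275 went the other way, with rank 1999 pooled, 10577 in replicate 5 and 1221 in replicate 6, the highest of any nhr gene in that replicate. nhr-241, on the right arm of chromosome V, had rank 1983 pooled, 1793 in replicate 5 and 19356 in replicate 6. These 3 genes had pooled signals of 44.3 to 45.1, within 1 unit of each other, with opposite support from the replicates.

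The pair nhr-49 and nhr-66 are receptors of fat metabolism, the first controlling fatty acid desaturation and the fasting response and the second acting as its partner in lipid remodelling. nhr-49 had its pooled summit between genes, 179 bp upstream of a start, with a signal of 42.2 pooled (rank 2529), 27.2 in replicate 5 (rank 3795) and 18.8 in replicate 6 (rank 3534). These ranks were of like size, but the best summits of the replicates lay 1525 bp apart, at different starts of the gene, and the replicate 5 interval over the pooled summit ranked 5320. nhr-66 had rank 3042 pooled, 3107 in replicate 5 and 9640 in replicate 6, and the replicate 6 interval over the pooled summit had rank 17266. Its signal in replicate 6, 14.4, was not far above that list's median of 12.3.

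The remaining 4 of the 12 best pooled receptors were nhr-255, nhr-15, nhr-3 and nhr-256, with pooled ranks of 3688, 3885, 4176 and 4449. nhr-255 had its summit 498 bp from its start, just inside the window, and no replicate 5 interval covered it. In replicate 6 the best interval in the window had rank 29446 and a signal of 9.01, 337 bp upstream, while an interval over the pooled summit, with its own summit outside the window, had rank 980. nhr-256, whose printed sequence is rich in runs of A and T, ranked 613 in replicate 5 and had no interval in replicate 6. nhr-3 ranked 8228 in replicate 5 with none in replicate 6, and nhr-15 ranked 3874 in replicate 5 and 14757 in replicate 6. None of the 4 was high in both replicates.

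**Figure D3:**
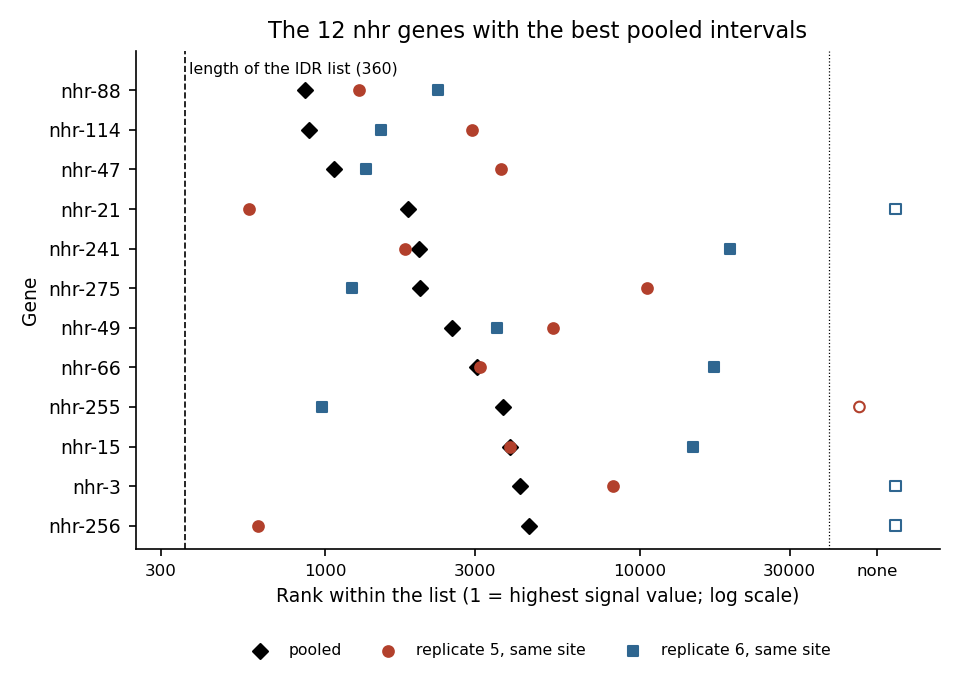
Rank (log scale, 1 = highest signal) of the best pooled interval of the 12 highest nhr genes (black diamonds) and of the replicate 5 (red circles) and replicate 6 (blue squares) intervals that hold the same summit. Open symbols beyond the dotted line mark no interval, and the dashed line marks the 360 intervals of the IDR list, which no pooled symbol reaches.

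Each replicate had high receptors that the pooled list ranked low or lacked. In replicate 5 the next after nhr-21 and nhr-256 were nhr-142 (rank 1062), nhr-105 (rank 1202) and nhr-46 (rank 1229), which ranked 7452, 7816 and 4541 in the pooled list. nhr-142 had summits 2112 bp apart at different starts, 495 bp upstream of one in replicate 5 and 494 bp downstream of the other in the pooled list. In replicate 6 the next were nhr-150 (rank 1227), nhr-47, nhr-88 and nhr-32 (rank 1808). nhr-150 ranked 13189 in the pooled list, and nhr-32 had no interval in the pooled list or in replicate 5.

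Of a fixed list of 10 receptors with orthologues in other phyla, 5 had a pooled interval, beside 33.6% of all protein-coding genes. The ranks of these 5 ran from 4520 down. nhr-41, related to the vertebrate testicular receptors TR2 and TR4, had a signal of 36.5 pooled (rank 4520), 29.3 in replicate 5 (rank 2714) and 9.26 in replicate 6 (rank 28082). nhr-6, an NR4A relative that acts in the spermatheca, ranked 6467 pooled, 14231 in replicate 5 and 9500 in replicate 6. nhr-25, the FTZ-F1 relative of the epidermis and the moult, ranked 9377, 17990 and 17564 in the same order. nhr-41 was the highest of these in the pooled list, yet near the end of the replicate 6 list.

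nhr-8, a relative of daf-12 that acts in cholesterol and xenobiotic handling, ranked 13635 pooled, 13859 in replicate 5 and 2510 in replicate 6, with the replicate 6 summit elsewhere in the window. nhr-48, of the same subgroup, ranked 19820 in the pooled list and had none in either replicate. nhr-23, the ROR relative that drives moulting, had intervals in replicate 5 (rank 16912) and replicate 6 (rank 12439) but none in the pooled list, and nhr-91, the germ cell nuclear factor relative, had one in replicate 5 alone (rank 6594). nhr-67, the tailless relative, nhr-85, the Rev-erb relative, and nhr-111 had none. Of the 10 genes, 5 had an interval in both replicates, beside 17.7% of all protein-coding genes, and so small a list bears no reading from its share.

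Of 16 receptors with roles in fat, stress or other metabolism, 10 had a pooled interval, 62.5% beside 33.6% of all protein-coding genes. In replicate 5 there were 9, 56.2% beside 33.9%, in replicate 6 there were 11, 68.8% beside 33.9%, and in both replicates 6, 37.5% beside 17.7%. The list is small and was chosen with earlier results of these data known, so it bears no reading from these shares. The median rank of the 10 was 17331, near the family's 16864. Beyond nhr-114, nhr-49 and nhr-66 all of them lay in the lower part of the list. nhr-76, which acts in serotonin-driven fat loss, ranked 16996, nhr-86, which senses a bacterial phenazine, ranked 17128, and nhr-68, which acts with nhr-10 on the propionate shunt that replaces vitamin B12-dependent breakdown, ranked 17534. nhr-62, which acts in lifespan under dietary restriction, ranked 18905 and nhr-45 ranked 25987. Of the 243 receptors in neither list, 86 had a pooled interval, or 35.4%.

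Of 15 named genes of the pathway that are not nhr genes, 14 were found in the annotation, 7 had a pooled interval, beside 33.6% of all protein-coding genes, and none had an IDR peak at a start, which at a share of 0.941% says little for so few genes. They were the receptors daf-12 (rank 1616), unc-55 (7145) and odr-7 (15879), the coregulators mdt-15 (1226), din-1 (3363) and cbp-1 (8397), and emb-8 (548), the cytochrome P450 reductase. mdt-15, the Mediator subunit that binds NHR-49, ranked 4496 in replicate 5 and 782 in replicate 6. daf-12, the dafachronic acid receptor of dauer formation, ranked 20498 in replicate 5 and 689 in replicate 6. The genes of steroid ligand metabolism daf-9, daf-36, hsd-1, dhs-16 and strm-1 had none in any of the lists, fax-1 had one in replicate 5 alone and sex-1 one in replicate 6 alone.

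The family is concentrated on chromosome V, which holds 167 of the 269 genes, 62.1%, against 25% of all protein-coding genes. The arms of that chromosome, taken as gene starts below 6 Mb or above 16 Mb, hold 102, or 37.9% against 12.1%, with 77 on the left arm and 25 on the right. In the pooled list 36 of the 102 arm genes had an interval, 35.3%, beside 30.3% of all protein-coding genes on the arms. The other 167 nhr genes gave 65, or 38.9%, beside 34.0% of protein-coding genes elsewhere. The arm genes were thus 3.63 points lower in share, with a 95% interval (Newcombe) from -15.1 to 8.34 points.

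The replicates gave the opposite order. In replicate 5, 40 arm genes had an interval, 39.2%, beside 30.8% of protein-coding genes on the arms, and 60 of the others, 35.9%, beside 34.3%. In replicate 6 the counts were 42 on the arms, 41.2% beside 29.6%, and 57 elsewhere, 34.1% beside 34.4%. No difference in share between arm and other receptors held over the 3 lists. The others include 65 receptors of the chromosome's centre. With the whole of chromosome V set against the other chromosomes, the pooled shares were 32.9% and 45.1%. That is -12.2 points, beside -4.85 points for all protein-coding genes. This contrast was taken in the pooled list only and without an interval, so its size in the replicates is not given. In each list the arm receptors did have a higher share than the protein-coding genes of the arms, by 5 to 12 points, with Wilson 95% intervals of 26.7 to 44.9% pooled, 30.3 to 48.9% in replicate 5 and 32.1 to 50.9% in replicate 6. The first 2 of these included the share of arm protein-coding genes and the last did not.

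Each arm and the centre were also taken alone. On the left arm 29 of 77 receptors, 37.7%, had a pooled interval, beside 32% of the protein-coding genes there, with 33 in replicate 5, 42.9% beside 32.5%, and 30 in replicate 6, 39% beside 31.4%. On the right arm 7 of 25, 28.0%, had one in the pooled list, beside 28.2%, with 7 in replicate 5, 28.0% beside 28.7%, and 12 in replicate 6, 48% beside 27.4%. The Wilson intervals of the arms overlapped in each list, in replicate 6 with 28.8 to 50.1% on the left and 30 to 66.5% on the right. The 65 receptors of the centre of the chromosome gave 19 pooled, 29.2% beside 29.6%, 18 in replicate 5, 27.7% beside 29.9%, and 15 in replicate 6, 23.1% beside 30.7%. In both replicates 4 of them had one, 6.15% with a Wilson interval of 2.42 to 14.8%, beside 14.6%. Off chromosome V the highest pooled shares were those of chromosome X, with 12 of 23 genes beside 36.8% of its protein-coding genes, chromosome III, with 4 of 8 beside 37.6%, and chromosome IV, with 16 of 33 beside 33.3%. Each Wilson interval included the share of the chromosome's protein-coding genes, and in replicate 6 chromosome X stood at 34.8% beside 38%.

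Rank by region depended on the list as well. The median pooled rank was 15664 for arm receptors and 17534 for the others, while in replicate 6 it was 17232 for arm receptors and 10953 for the others. In replicate 5 the medians were 15075 and 15690. The others thus moved from the lower to the higher side between the pooled list and replicate 6. For all protein-coding genes on the arms the medians were 14848 pooled, 14124 in replicate 5 and 14369 in replicate 6. Elsewhere they were 12366, 12740 and 12644. The receptors had the higher rank number each time, except off the arms in replicate 6. On the right arm alone, receptors stood at 13568, 12250 and 21241, beside 17400, 15166 and 15395, with 7, 7 and 12 receptors.

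**Figure D4:**
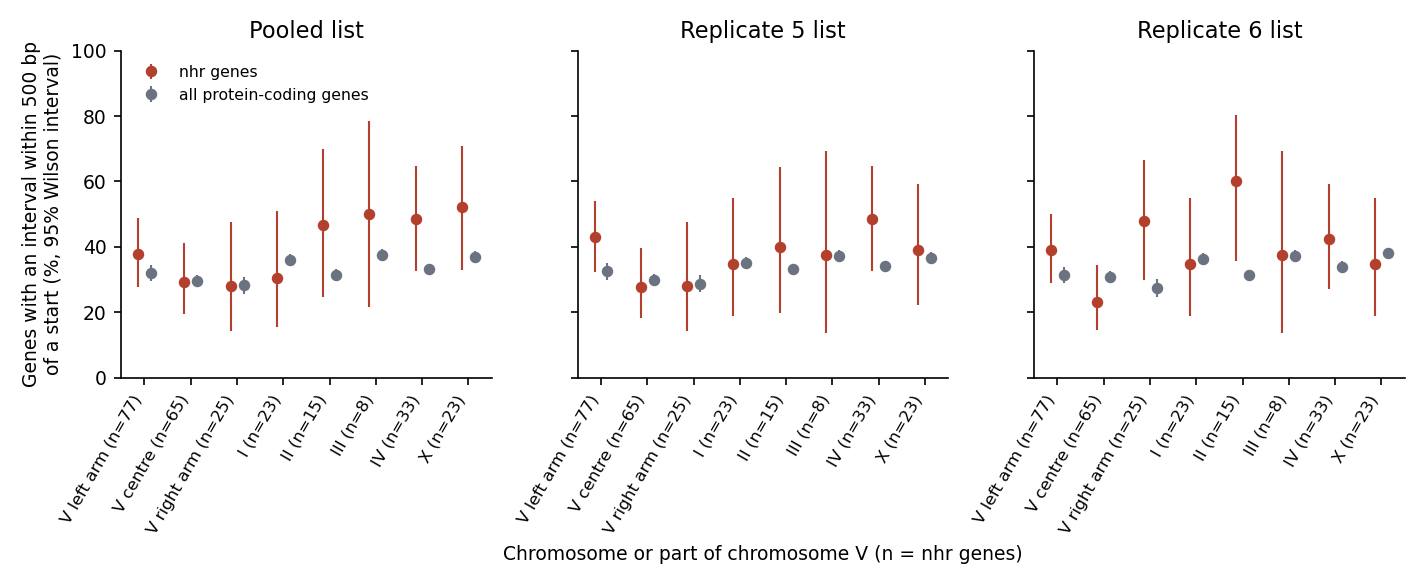
Share (%) of nhr genes (red) and of all protein-coding genes (grey) with an interval within 500 bp of a start, for the parts of chromosome V and the other chromosomes, in each list; bars are 95% Wilson intervals and cover counting error over genes only. The right arm of chromosome V stands at 28.0% in the pooled list and 48% in replicate 6, and most nhr bars cross the grey points.

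The position of the best pooled summit was compared next. Of the 36 arm receptors with a pooled interval, 26 had the summit at or downstream of the start, 72.2%, and 20 had it in a coding exon, 55.6%, which was in another gene for 3 of them, with 4 between genes, 11.1%. Of the 65 others, 34 were downstream, 52.3%, 20 in a coding exon, 30.8%, and 24 between genes, 36.9%. All protein-coding genes on the arms had 52.7% downstream, 37.2% in a coding exon and 33% between genes. The Wilson interval of the downstream share of arm receptors, 56.0 to 84.2%, lay above the share of arm genes. In replicate 5 the downstream share of arm receptors was 55% beside 54.1% of arm genes, and in replicate 6 it was 69% beside 56.2%, with Wilson intervals that included the share of arm genes.

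The first 300 bp of the gene held 23 of the 36 arm summits in the pooled list, 63.9%, against 34.4% for all protein-coding genes on the arms. In replicate 5 it held 19 of 40, 47.5% against 35.2%, and in replicate 6 it held 23 of 42, 54.8% against 34.8%. For the other receptors the shares were 35.4% pooled, 30.0% in replicate 5 and 29.8% in replicate 6. This span was chosen after the values had been seen, and the pooled list is made from both replicates, so the 3 lists are not independent. The direction was the same in each of them.

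**Figure D5:**
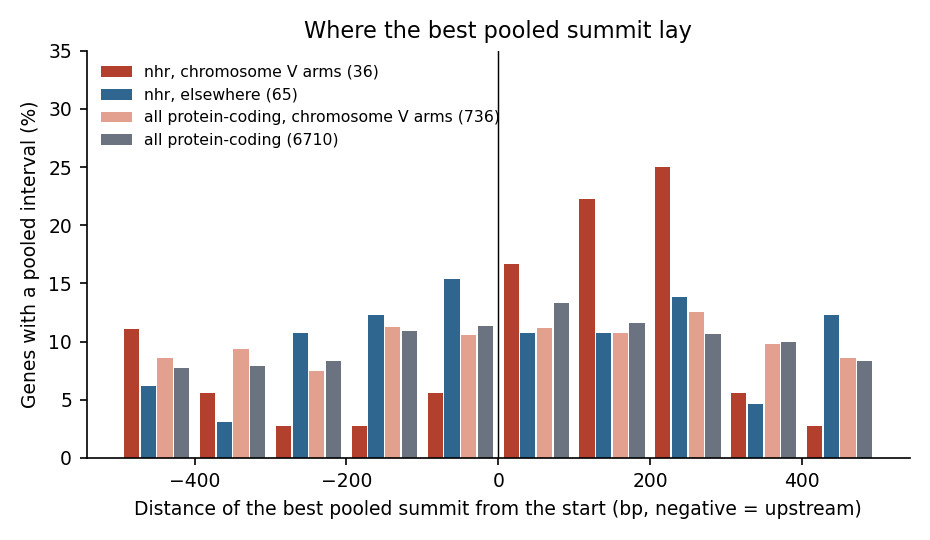
Distance (bp) of the best pooled summit from the nearest start of its gene, negative upstream, as a share (%) of the genes with a pooled interval, in bins of 100 bp. The 36 arm receptors (dark red) peak between 0 and 300 bp downstream, which holds 63.9% of them, where all protein-coding genes on the arms (light red) hold 34.4%.

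Over the whole family, 28 of the best pooled summits lay between genes, 30 in introns, 40 in coding exons, 2 in untranslated regions and 1 in a non-coding exon. Introns held 29.7% against 22.4% of all protein-coding genes with an interval, and untranslated regions 1.98% against 7.6%. Of the 30 in introns 28 were in the receptor's own gene, as were 37 of the 40 in coding exons. The median distance from the start was 211 bp, against 215 bp. The intervals were all distinct, so no interval was counted for 2 receptors, and at all but 1 of them the nhr start was the nearest protein-coding start, against 93.6% over all protein-coding genes. Start sites of small RNA genes lay in the window of the summit at 3 of them, 2.97% against 5.13%.

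Gene structure was compared in the same way. Receptors with 2 or more annotated starts, which offer a longer window, were 37.9% of the family against 27.4% of protein-coding genes. Of these 102 genes 44 had a pooled interval, 43.1%, and of the 167 with 1 start 57 had one, 34.1%, beside 47.9% and 28.2% of all protein-coding genes with as many starts. The Wilson intervals of the receptors, 33.9 to 52.8% and 27.4 to 41.6%, included these shares.

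The share of repeated sequence at the starts was measured, and its part in which receptors lacked an interval was not tested. Windows in which more than 10% of 32-base words occur elsewhere in the genome were found at 29 receptors, 10.8%, against 12.4% of all protein-coding genes, and 8 of the 29 had a pooled interval, 27.6%, beside 21.1% of protein-coding genes with such windows. The most repeated were nhr-244 at 92.6%, nhr-259 at 91.8%, nhr-73 at 71.2% and nhr-141 at 65.2%, none of which had one. Without the 29, 93 of 240 receptors had a pooled interval, 38.8%, beside 35.4% of all protein-coding genes.

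The intervals at receptor starts were poorer in G and C than the strong peaks. In the summit and 50 bases on either side the median GC content was 37.6% for nhr genes, 41.6% for all protein-coding genes with an interval and 45.5% for IDR peaks. A run of at least 5 A or 5 T, as in the sequences of nhr-15 and nhr-256 above, was present at 61 receptor summits, 60.4%, against 54.8% of protein-coding summits, 53.1% of all pooled intervals and 43.3% of IDR peaks. The letters of the nuclear receptor half-site, AGGTCA on either strand, were present at 3 receptor summits, 2.97%, and in 2.87% of the windows of all 30000 pooled intervals.

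Of the 360 IDR peaks, 5 had a summit within 5 kb of an nhr gene, each away from the windows at starts. They reached 7 receptors, 2.6% of the family (Wilson 95% interval 1.27 to 5.27), beside 5.4% of all protein-coding genes. The highest was in nhr-17 at X:12665258, with IDR rank 84, and it had a signal of 56.9 in replicate 5 (rank 137) and 44.6 in replicate 6 (rank 99). It lay 2596 bp from the start of nhr-17 and 30 bp from that of the tRNA gene whose sequence is printed above. nhr-17 itself had no interval at its start in any list.

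Another lay in an intron of nhr-105 at IV:7051681, with IDR rank 267 and a signal of 72.4, and ranked 518 in replicate 5 and 402 in replicate 6. Its distance to the nhr-105 start was 1525 bp and that to the nearest start of any gene, the piRNA gene 21ur-9762, was 204 bp, and its sequence is the last of those printed. A peak at II:2974230, with IDR rank 102 and a signal of 96.3, lay between genes 2409 bp upstream of nhr-88, and no annotated start of any gene was nearer to it. It ranked 29 in replicate 5 and 245 in replicate 6. nhr-88 was thus the receptor with the highest pooled interval at a start and also the one with an IDR peak upstream.

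The last 2 lay past the 3′ ends of receptors on chromosome V. One at V:15873986, 107 bp past nhr-102, had IDR rank 99 and ranked 87 in replicate 5 and 239 in replicate 6, and its summit was 60 bp from the start of the small nucleolar RNA gene T06C12.16. The other at V:11575882, 173 bp past nhr-68, had IDR rank 338, and it ranked 189 in replicate 5 but 5801 in replicate 6, so it rested mainly on 1 replicate. Of all 269 receptors, 2 held an IDR summit within the gene, 0.743%, against 0.796% of all protein-coding genes, whose median span was 2027 bp against 2309 bp for receptors.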

How the data were processed

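Lists on build ce11 from whole-worm ChIP-seq of GFP-tagged F57C9.4 were used: replicate 5, replicate 6, pooled, and IDR. Per the labels, shearing was by sonication and a possible control exists, which was not used here. Neither aligner nor caller is named in the labels or file headers. The signal value deposited for each interval (narrowPeak column 7) comes from the authors' caller and served to rank intervals within a list. The −log10 q-value, also deposited, describes intervals only. Another deposited value, the summit offset in bp, gave the summit position. Lists on another build were not used. The lists hold no read counts, so depth per replicate is unknown.

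Starts came from Ensembl release 115 (46926 genes), and 12 mitochondrial protein-coding genes were left out. Sequences came from the RefSeq genome of the same assembly, whose chromosome lengths were checked against the lists and the annotation. A gene's best interval was the highest by signal with a summit within 500 bp of any of its starts. With 1 group of 2 replicates no test over samples exists, so counts, shares and medians stand beside those of all protein-coding genes (nhr genes included), with Wilson 95% intervals that cover counting error over genes only. The members and gene lists were chosen with earlier results of these data known. Genes were named as the 12 highest in the pooled list and the 5 highest in each replicate and on the chromosome V arms. Also named were fixed lists of conserved receptors, metabolic receptors (up to 8 with a pooled interval) and pathway genes, and any receptor with an IDR peak at a start. Other genes (nhr-59, nhr-1, nhr-210, nhr-17, nhr-102 and the most repeated) were named after their values were seen. Assignment was tested on simulated data. Python 3.11.15, numpy 2.4.6, pandas 2.3.3, scipy 1.17.1 and matplotlib 3.10.9 were used.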

Additional observations from a re-analysis of the deposited data

How the results depend on the processing

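With the window at 250 bp, 67 receptors had a pooled interval (24.9%, beside 21.1% of all protein-coding genes), and within the best 10000 pooled intervals 31 had one. Without replicate 6 or replicate 5 the count was 100 or 99. The arm share minus the share of the others, -3.63 points, reversed to 3.29 without replicate 6, 7.04 without replicate 5 and 0.387 within the best 10000 intervals, and ran from -12.2 (whole of chromosome V) to -0.64 otherwise. An IDR summit came within 1000 bp of a start at 1 receptor, nhr-68 (849 bp), beside 273 of the 19973 protein-coding genes. With the window unchanged, the best 1000 pooled intervals gave 2 receptors, beside 429 protein-coding genes. Without replicate 6 or 5, taking the best 360 of a single replicate, the count stayed at 0. Of the 269 receptors, both replicates shared 23 at 250 bp, 85 at 1000 bp and 17 with summits within 200 bp. The counts over the 19973 protein-coding genes were 1714, 6628 and 1780. The median rank was 15735 at 1000 bp, 15284 and 14490 without replicate 6 and 5, 4856 within the best 10000 (4327 for all protein-coding genes), and 15801 without genes of repeated windows, an alternative added after seeing the data. In each of these settings the receptors' median rank number was higher than that of all protein-coding genes. For the 12 highest receptors neither replicate was left out, and keeping the best 10000 intervals could not change ranks as high as theirs. Of 69 ranks of these receptors under other settings, 65 were the same. The others were nhr-88 at 2208 at 250 bp and with outermost starts only, nhr-114 at 22465 at 250 bp, and nhr-255 at 478 at 1000 bp, and in 3 cases no interval was left. The causes were not tested. No entry named nhr- was other than protein-coding, so that alternative changed nothing. No paired analysis was possible because there is 1 group. Depth is unknown, and the median interval width of 404 bp limits the position of a summit.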
